A study of Mus musculus with 6 samples.

Results

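The Myc family of transcription factors and a pair of its growth targets were followed in mouse embryonic stem cells of the RW4 line, with and without a chemical inducer. The 10 genes, out of 19938 genes measured, were chosen by name: Myc, Mycn, Max, Mga, Mnt, Mlx, Mxd3, Mxd4, Ncl and Odc1. Each was read from the probe set whose platform annotation gave that symbol, and all 10 were found. No measured value entered that choice, although earlier results of these data were known when it was made. The arrays were single-colour Affymetrix arrays of total RNA, 6 in all, in 3 groups of 2. The first group had no agent and carries the induction system label WT. The second was given 4-hydroxytamoxifen (4OHT) at 1 µM and carries the label ERT2, for a mutated estrogen receptor domain that answers to this drug. The third was given Shld1 at 1 µM and carries the label FKBP, for a destabilised protein domain that Shld1 stabilises. All groups were RW4 cells grown on gelatin in medium with calf serum, fetal bovine serum and leukemia inhibitory factor (LIF). Whether a fusion protein was present in the cells, and how long the agents were left on, is not stated in the labels. They call the arrays of a group duplicates and name no separate cultures, so every p-value here rests on a spread between samples that may be only technical. Each agent came with an induction system label of its own, so what belongs to the agent and what to the system cannot be told apart.

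Myc and Mycn are activators that bind DNA only as a pair with Max, at a short site called the E-box. Max is also the partner of the repressors Mnt, Mxd3 and Mxd4 and of the very large protein Mga, so activators and repressors compete for 1 shared partner. Mlx heads a parallel branch that pairs with the glucose-sensing Mondo proteins. In mouse embryonic stem cells, LIF signalling through Stat3 and signalling through beta-catenin are known to act upstream of Myc, Myc and Mycn are known to stand in for each other, and Mga with Max is known to help silence germ cell genes. Nucleolin (Ncl), a nucleolar protein of ribosome assembly, and ornithine decarboxylase (Odc1), the first enzyme of polyamine synthesis, are classical targets of Myc in growing cells.

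The E-box was itself found in the promoters of several of these genes. RefSeq promoter windows of GRCm38.p6, from 250 bases before to 50 after the annotated start, were at hand for 9 of the 10 genes, and 4 of them (44.4%) held the palindrome CACGTG: Max, Mlx, Mnt and Mxd4. Among the 15563 genes tested that had a window, 1481 (9.52%) held it, and among the 8974 of these with a GC content between 55.0% and 78.0%, the range of the 9 genes, 12.3% did. Of all 32851 windows in the table, 7.15% held it. Of 20 other listed genes of the Myc, Max and Mlx network, 17 had a window and 2 of those (11.8%) held it. The sites below are shown because they are in genes of the network that reads this motif. Each is 30 bases on the strand of the gene, with the motif in capitals.
Max, chr12:76962234-76962263, minus strand: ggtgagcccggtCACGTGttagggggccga
Mlx, chr11:101087238-101087267, plus strand: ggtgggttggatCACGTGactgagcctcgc
Mnt, chr11:74830789-74830818, plus strand: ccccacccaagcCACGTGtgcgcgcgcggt
Mxd4, chr5:34187912-34187941, minus strand: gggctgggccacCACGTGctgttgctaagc

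In Max the motif began 3 bases before the start and ran across it. In Mlx it began 40 bases before the start, in Mnt 123 and in Mxd4 219. The related motif CACGCG, searched on both strands and read as CGCGTG on the other, was in 2 of the 9 genes (22.2%), Odc1 and Mga. The share was 14.9% of the genes tested that had a window and 21.6% of those in the GC range of the 9 genes, close to that of the 9. Odc1 held it once on each strand, as follows.
Odc1, chr12:17544760-17544789, plus strand: cgggtgggtgggCACGCGctgcgccccgcc
Odc1, chr12:17544681-17544710, plus strand: ggtgatgtggtgCGCGTGcgcaggcctgcc
Mga, chr2:119897195-119897224, plus strand: agctggtaggagCGCGTGcgcagtgacgtg

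The windows of Mycn, Mxd3 and Ncl held neither motif. A match describes the letters of the window and is no measure of binding, and a window without one says nothing of the factor.

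The values were log2 signals per probe set, used as deposited, and having 2 arrays a group limits how well a difference is known. Between groups, the standard error of a log2 difference had a median of 0.160, and its 95% interval reached 0.357 to either side in the median gene. Signals spanned less on 2 of the arrays, called those of narrower range below: the SD over all probe sets was 2.29 on 4OHT replicate 1 and 2.24 on Shld1 replicate 2, against 2.33 to 2.35 on the others. All 10 listed markers of stem cells lay above background, with Pou5f1 at 10.40 ± 0.05, Sox2 at 10.64 ± 0.01 and Nanog at 10.91 ± 0.03 in untreated cells (SD, n = 2). Background was taken as 3.73, the 95th percentile of the mean signal of 1015 olfactory receptor genes. That level was passed by 12815 of all 19938 genes, so lying above it does not mark a cell type. Of the markers of other cell types, 5 of 8 for fibroblasts, 5 of 6 for endoderm, 4 of 6 each for trophoblast and neural cells and 2 of 5 for mesoderm also lay above that level. No marker of these lists passed in either comparison with untreated cells (limma, 0 at an adjusted p under 0.05; 3 with 4OHT and 1 with Shld1 at an unadjusted p under 0.05, which 4.99% and 4.34% of all genes had). All 10 genes of the network lay above background on every array. Signals of different probe sets do not rank genes by abundance, so each gene's level is compared only with itself, and mean signal serves only to group genes of like array signal.

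Myc stood out among the 10. Its log2 signal was 5.08 and 5.39 on the untreated arrays, 5.86 and 5.68 with 4OHT, and 5.54 and 5.58 with Shld1. All 4 treated arrays thus lay above both untreated arrays, and the 4OHT arrays above the Shld1 arrays. The means were 5.24 ± 0.22, 5.77 ± 0.13 and 5.56 ± 0.02 (SD, n = 2 each). With 4OHT the log2 difference was 0.53 (SE 0.16, 95% interval 0.18 to 0.88), a 1.45-fold higher signal. It did not pass adjustment over all genes (limma, adjusted p = 0.96; unadjusted p = 0.00723), and 108 of the 19938 genes had a smaller p. With Shld1 the difference was 0.33 (SE 0.16, interval -0.03 to 0.68; limma, adjusted p = 0.999). Both comparisons used the same untreated arrays, which differed from each other for Myc by more than the treated pairs did. Without untreated replicate 1, the lower of them, the difference was 0.38 with 4OHT and 0.17 with Shld1. In RNA from whole cultures, a change in some of the cells and a change in all of them cannot be told apart.

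Mycn, the paralogue of Myc, lay on the other side with 4OHT. Its signal was 6.90 and 6.98 on the untreated arrays, 6.71 and 6.70 with 4OHT, and 6.98 and 6.86 with Shld1. The 4OHT arrays were below the other 4, while the Shld1 and untreated arrays overlapped. The log2 difference with 4OHT was -0.24 (SE 0.14, 95% interval -0.55 to 0.07; limma, adjusted p = 0.96) and with Shld1 -0.02 (SE 0.14, interval -0.33 to 0.29), which was 0.04 under quantile normalization. The 4OHT difference was -0.23 on replicate 1 and -0.24 on replicate 2, the array with the wider range. Genes within 0.5 of the mean signal of Mycn had medians of -0.14 and -0.01 on those arrays. Under quantile normalization the 4OHT difference of Mycn was -0.16. Neither the Myc nor the Mycn difference passed, so opposite changes of the pair are not shown.

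**Figure D1:**
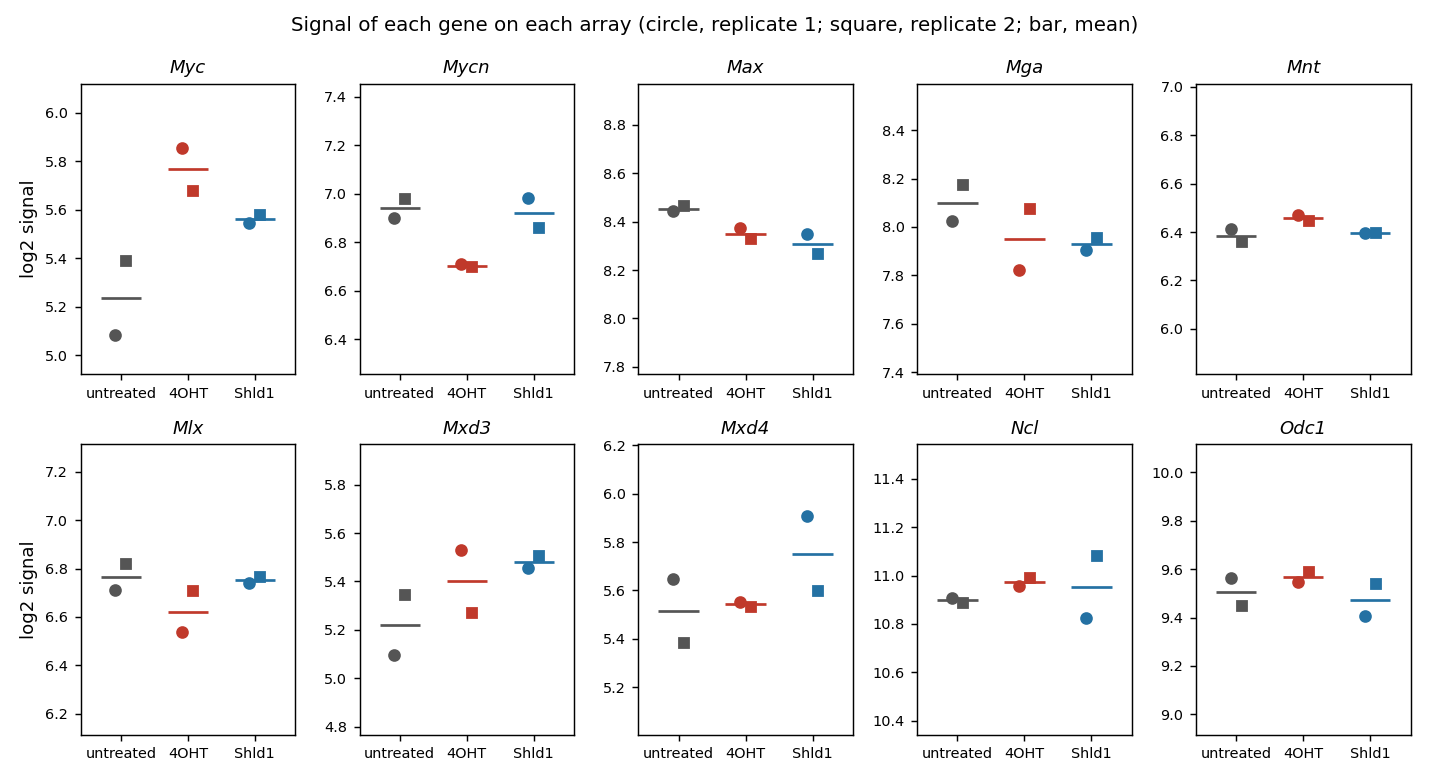
Log2 signal of each of the 10 genes (vertical axis) on each array, by group, with circles for replicate 1, squares for replicate 2 and bars for the group mean of 2 arrays; every panel spans the same height on the log2 scale, around a centre of its own. Myc ran from 5.08 to 5.86 with both untreated arrays lowest, Mycn was lowest on the 4OHT arrays, and Mnt and Odc1 moved least.

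The common partner Max had close replicates. Its signal was 8.44 and 8.46 without treatment, 8.37 and 8.33 with 4OHT and 8.35 and 8.27 with Shld1. All treated arrays lay below both untreated arrays, the nearest of them 4OHT replicate 1. The log2 difference was -0.10 with 4OHT (SE 0.14, 95% interval -0.41 to 0.20) and -0.15 with Shld1 (SE 0.14, interval -0.45 to 0.16), neither past the threshold. Genes within 0.5 of the mean signal of Max had median differences of -0.13 on 4OHT replicate 1 and -0.12 on Shld1 replicate 2, the arrays of narrower range, and of -0.007 and -0.005 on the other 2. Max itself was at -0.13 on 4OHT replicate 2 and -0.11 on Shld1 replicate 1. Mlx, the common partner of the Mondo branch, was at 6.71 and 6.82 without treatment, 6.54 and 6.71 with 4OHT, and 6.74 and 6.77 with Shld1. Its 4OHT arrays lay below the untreated ones, the upper of them only just, and its Shld1 arrays between them. The difference was -0.14 with 4OHT (SE 0.14) and -0.01 with Shld1 (SE 0.14), and the latter changed sign under quantile normalization.

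Among the repressive partners of Max, Mga was at 8.02 and 8.17 without treatment, 7.82 and 8.08 with 4OHT, and 7.90 and 7.96 with Shld1. Its Shld1 arrays lay below the untreated arrays and its 4OHT arrays overlapped with them. The differences were -0.15 (SE 0.15) and -0.17 (SE 0.15), and genes of like signal were at -0.14 and -0.01 on the 4OHT arrays and 0.004 and -0.12 on the Shld1 arrays. Mga itself was at -0.28 and -0.02, and at -0.19 and -0.14, so on Shld1 replicate 1 it lay below genes that were near 0. Mnt, a repressor present in resting and growing cells alike, was at 6.41 and 6.36, then 6.47 and 6.45 with 4OHT, and 6.40 on both Shld1 arrays. It had the narrowest spread of the 10, with all 6 arrays within 0.115, a range smaller than that of all but 0.903% of genes. Its differences were 0.08 (SE 0.14) and 0.01 (SE 0.14).

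Besides Myc and Mycn, the Mxd repressors were the genes with differences over 0.2 in size, both with Shld1. Mxd3, which is known for its expression in dividing cells, was at 5.09 and 5.35 without treatment, 5.53 and 5.27 with 4OHT, and 5.45 and 5.50 with Shld1. Its Shld1 arrays lay above both untreated arrays, and its 4OHT arrays were as far apart as the untreated ones. The difference was 0.26 with Shld1 (SE 0.16, 95% interval -0.10 to 0.61; limma, adjusted p = 0.999) and 0.18 with 4OHT (SE 0.16). Mxd4 was at 5.65 and 5.38, then 5.55 and 5.53 with 4OHT, and 5.91 and 5.60 with Shld1. Only Shld1 replicate 1 stood above the untreated arrays, and the difference with Shld1 was 0.24 (SE 0.16, interval -0.13 to 0.60), against 0.03 with 4OHT (SE 0.16).

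The growth targets stayed close to their untreated signal. Ncl was at 10.91 and 10.89 without treatment, 10.96 and 10.99 with 4OHT, and 10.83 and 11.08 with Shld1. The 4OHT arrays lay just above the untreated ones and the Shld1 arrays on both sides of them. Its log2 difference was 0.08 with 4OHT (SE 0.15, 95% interval -0.25 to 0.41) and 0.06 with Shld1 (SE 0.15, interval -0.27 to 0.38). Odc1 was at 9.56 and 9.45, then 9.55 and 9.59, and 9.41 and 9.54. Each treated group overlapped with the untreated arrays, while the 4OHT arrays lay just above the Shld1 arrays. Its differences were 0.06 (SE 0.14, interval -0.25 to 0.38) and -0.03 (SE 0.14, interval -0.35 to 0.28), the latter turning to 0.03 under quantile normalization. For both genes the intervals reach well to either side of 0, so a small change was not detectable with these arrays. Odc1 had 2 probe sets, whose annotation names the same 7 sequence records. On the dimmer one its difference with 4OHT was -0.06 (SE 0.14), of opposite sign to that on the brighter one, and with Shld1 -0.06 (SE 0.14). Which of the probe sets measures the gene better cannot be told from the files.

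Over the 10 genes, limma called none at an adjusted p under 0.05 in either comparison, as in all 19938 genes (0% called). At an unadjusted p under 0.05, 1 of 10 passed with 4OHT, namely Myc, which was higher, against 4.99% of all genes (2.57% higher and 2.42% lower). With Shld1 0 of 10 passed, against 4.34% (2.41% higher and 1.94% lower). These counts over all genes turned on single arrays. The 995 genes with 4OHT were 1634 without 4OHT replicate 2, 522 without 4OHT replicate 1, and 564 and 518 without untreated replicates 1 and 2. The 866 with Shld1 were 2680 without Shld1 replicate 1, and 545 and 481 without untreated replicates 1 and 2. Treated and untreated arrays fell on separate sides for 6 of the 10 genes with 4OHT (Myc, Mnt and Ncl higher, Mycn, Max and Mlx lower), against 37.7% of all genes, 17.3% higher and 20.4% lower. The same was so for 4 with Shld1 (Myc and Mxd3 higher, Max and Mga lower), against 32.5%, 15.2% higher and 17.3% lower. With 4OHT, 6 of the 10 differences were positive, with a median of 0.05, against 47.8% and -0.009 over all genes. With Shld1, 5 were positive, with a median of -0.0009, against 48.9% and -0.004. Those shares include genes of low signal. Of 4433 genes with a mean signal from 6.05 to 8.17, 28.3% were higher with 4OHT and 34.4% with Shld1. Mycn, Mga, Mnt and Mlx lie in that range. The 95% interval lay within 2-fold for all 10 genes in both comparisons, and within 1.5-fold for 9 with 4OHT and 7 with Shld1. Across the 6 arrays the median range of a gene was 0.283 for the 10, 0.431 for all genes and 0.408 for genes above background. Myc, with 0.775, had a wider range than 91.4% of all genes.

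**Figure D2:**
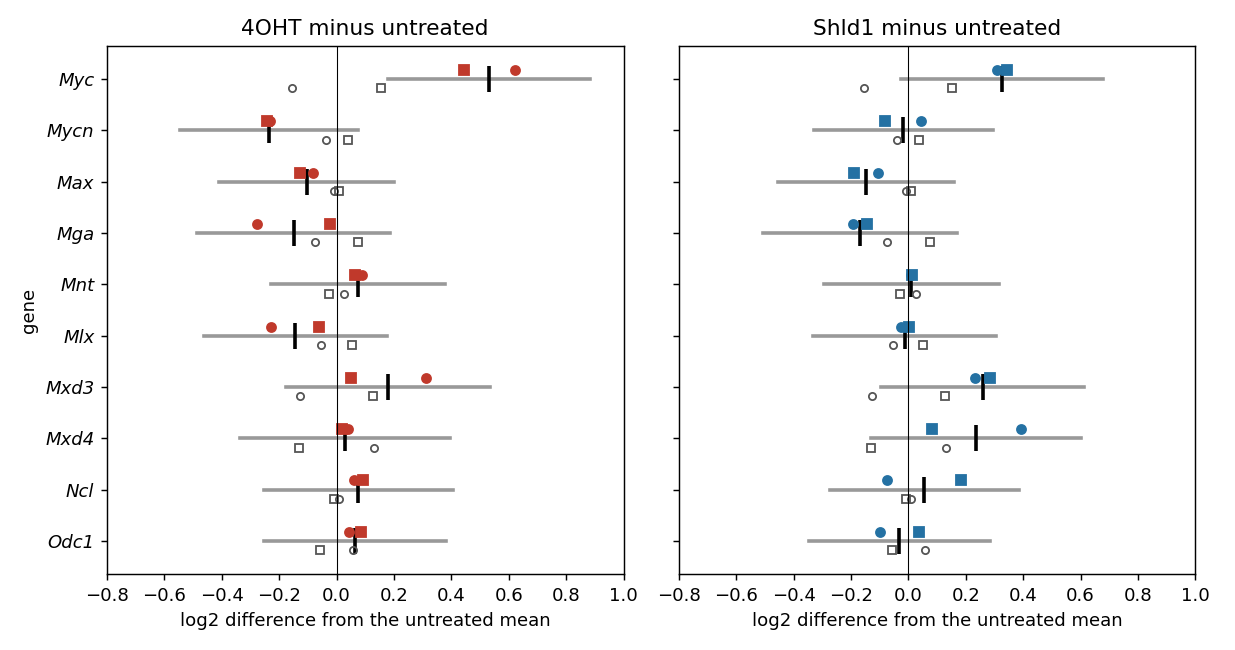
Log2 difference of each gene from its mean in untreated cells (horizontal axis), for 4OHT on the left and Shld1 on the right; filled symbols are the treated arrays, open symbols the untreated arrays (circles, replicate 1; squares, replicate 2), black ticks the group differences and grey bars their 95% intervals from limma. The interval for Myc with 4OHT, 0.18 to 0.88, is the one that does not cross 0.

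A direct comparison of 4OHT with Shld1, both at 1 µM, tests whether these groups differ. They also carry different induction system labels, so agent and system cannot be told apart here. Myc was 0.21 higher with 4OHT than with Shld1 (SE 0.16, 95% interval -0.15 to 0.56; limma, adjusted p = 0.931), and Mycn differed by -0.22 (SE 0.14, interval -0.53 to 0.09; adjusted p = 0.909). Mxd4 differed by -0.21 (SE 0.16) and Mlx by -0.13 (SE 0.14), and the other 6 genes by less than 0.10 in size. No gene of the 10 passed (limma, 0 of 10 adjusted and 0 of 10 at an unadjusted p under 0.05, against 0% and 5.6% of all genes, the latter 2.5% higher and 3.1% lower). Those 1117 genes were 2270 without Shld1 replicate 1 and 707 without 4OHT replicate 1. The arrays of the agents did not overlap for 6 of the 10, 3 higher and 3 lower with 4OHT, against 30.5% of all genes, 14.9% higher and 15.6% lower. The difference was positive for 6 of the 10, against 49.1% of all genes. The intervals lay within 1.5-fold for all 10 with every array in the fit, which does not show that the agents act alike. Without Shld1 replicate 2, Mxd4 differed by -0.36 (SE 0.18), and without both arrays of narrower range by -0.37 (SE 0.19).

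The narrower range of 4OHT replicate 1 and Shld1 replicate 2 had a shape that touches these genes. Among genes with a mean signal between 3 and 4, the median difference from untreated was 0.12 on 4OHT replicate 1 and 0.10 on Shld1 replicate 2. Among those between 6 and 7 it was -0.14 and -0.12. On the other treated arrays the same bands lay between -0.03 and 0.03. At the signal of Myc, genes within 0.5 of it had medians of -0.08, -0.01, 0.03 and -0.08 on the 4OHT and Shld1 arrays in order of replicate, while Myc was at 0.62, 0.44, 0.31 and 0.34. Without both arrays of narrower range the Myc difference was 0.44 with 4OHT (limma, unadjusted p = 0.0567) and 0.31 with Shld1.

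**Figure D3:**
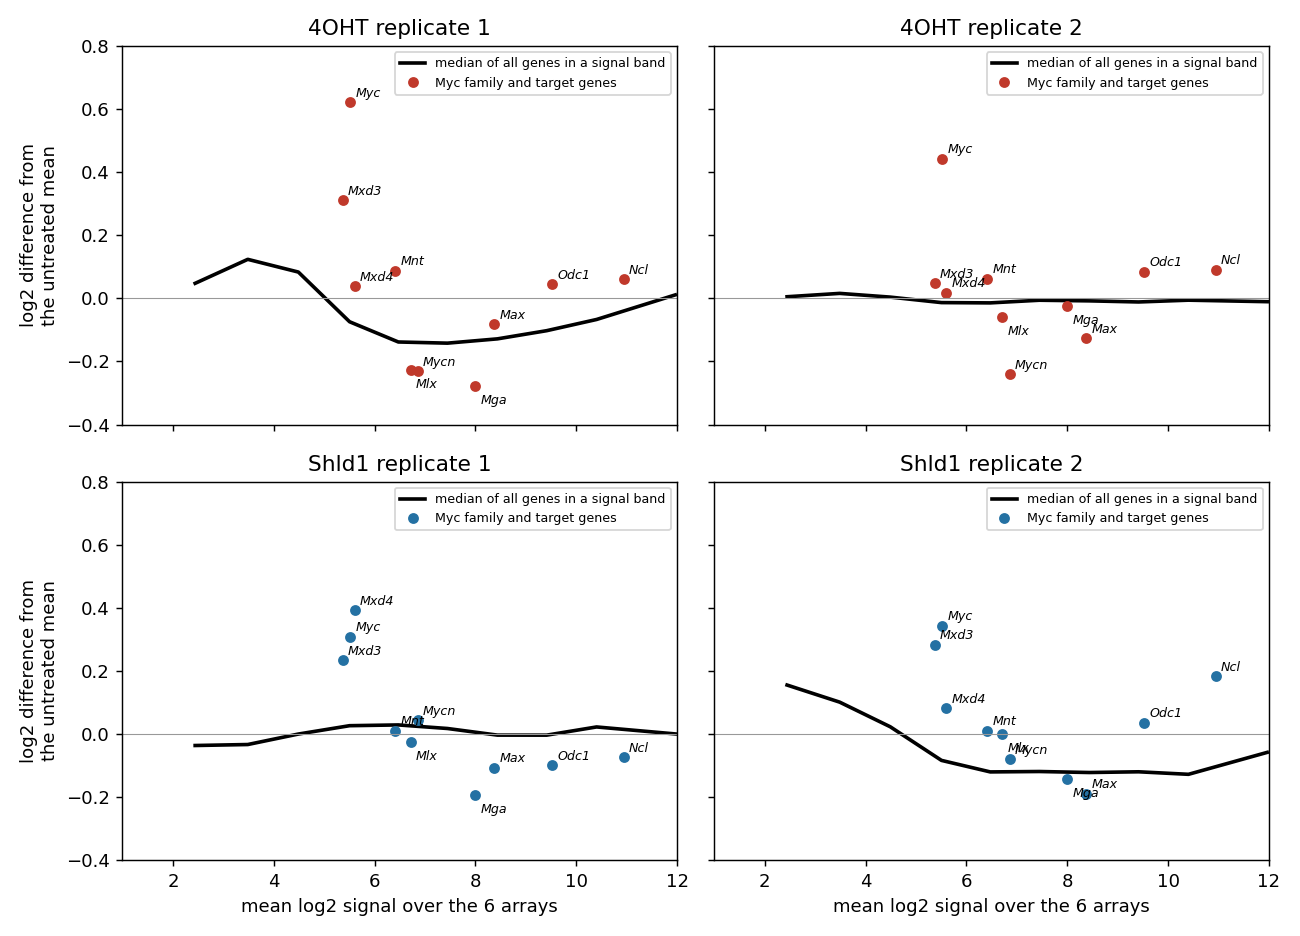
Difference from the untreated mean (vertical axis, log2) against mean log2 signal over the 6 arrays (horizontal axis), 1 panel per treated array; the black line joins the medians of all genes in bands of signal and the points are the 10 genes. The line bends below 0 for genes of middle signal on 4OHT replicate 1 and Shld1 replicate 2, and Myc lies above it on every array.

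The wider pathway was described with 7 lists holding 126 genes, 111 of them measured. No gene of these lists passed in either comparison (limma, 0 adjusted over all genes), and 4 with 4OHT and 1 with Shld1 had an unadjusted p under 0.05, all of them lower, where 2.42% and 1.94% of all genes were lower at that p (4.99% and 4.34% in either direction). These counts over 111 genes are at or near that background. Other members of the network numbered 20: 7 were higher and 13 lower with 4OHT (median -0.05), and again 7 and 13 with Shld1 (median -0.07). That is 35% higher, beside 30.4% and 36.9% of 4000 genes of like signal. The 4OHT median was 0.01 under quantile normalization and 0.03 without both arrays of narrower range, and the Shld1 median -0.03 under each. Mycl, the third Myc paralogue, differed by -0.28 with 4OHT (SE 0.15), its arrays below the untreated ones, and by -0.06 with Shld1. The repressor gene Mxd1 was at 4.51 ± 0.05 without treatment, 4.83 ± 0.40 with 4OHT and 4.89 ± 0.19 with Shld1, differences of 0.32 (SE 0.20) and 0.39 (SE 0.20). Fbxw7, the ubiquitin ligase subunit that marks Myc protein for destruction, differed by -0.24 with Shld1 (SE 0.15) and 0.12 with 4OHT.

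Ribosome biogenesis genes were lower in 19 of 24 cases with 4OHT (median -0.11) and in 20 of 24 with Shld1 (median -0.09). The 2104 genes in the middle of their signal range had medians of -0.07 and -0.06, with 26.9% and 29.7% of them higher, a shift in the same direction. Without both arrays of narrower range the list medians were -0.02 and -0.05, and under quantile normalization -0.03 and -0.04. Rrp9, a component of the U3 small nucleolar ribonucleoprotein, had the largest negative statistic with 4OHT (-0.26, SE 0.14) and Wdr12, a factor of large subunit assembly, with Shld1 (-0.31, SE 0.16). Ubtf, which recruits RNA polymerase I, had the largest positive one with 4OHT (0.08, SE 0.14) and Pes1, a partner of Wdr12, with Shld1 (0.19, SE 0.15).

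Around Odc1, the polyamine list was lower in 7 of 8 cases with 4OHT (median -0.07) and in 5 of 8 with Shld1 (-0.06), beside 28.3% and 35.2% of genes of like signal that were higher. Both medians turned, to 0.007 and 0.005, without the arrays of narrower range, and were -0.003 and -0.02 under quantile normalization. The list holds genes of polyamine breakdown as well as of synthesis, so its counts give no single pathway direction. Sat1, the acetyltransferase that starts polyamine breakdown, was at 5.75 ± 0.04 with 4OHT and 6.09 ± 0.16 without (-0.34, SE 0.15; limma, adjusted p = 0.96). Smox, spermine oxidase, differed by 0.04 (SE 0.15) with 4OHT. With Shld1 the extremes were Azin1, an inhibitor of antizyme, at -0.25 (SE 0.24), and the antizyme gene Oaz2 at 0.16 (SE 0.19). Nucleotide and one-carbon genes were lower in 15 of 18 cases with 4OHT (median -0.08) and 14 of 18 with Shld1 (-0.13). Under quantile normalization the medians were -0.009 with 4OHT and -0.09 with Shld1. Without the arrays of narrower range they were -0.05 and -0.01. Prps1, which makes the ribose phosphate donor of nucleotide synthesis, differed by -0.33 with 4OHT (SE 0.14), and Ppat, the first committed enzyme of purine synthesis, by -0.34 with Shld1 (SE 0.14; limma, adjusted p = 0.999). Nme2, a nucleoside diphosphate kinase, had the largest positive statistic with either agent, at 0.07 (SE 0.15) and 0.17 (SE 0.15). Genes in the middle of that list's signal range had medians of -0.07 and -0.06, with 26% and 29.4% of them higher, against 16.7% and 22.2% of the list.

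Translation factors and amino acid transporters were lower in 9 of 11 cases with each agent (medians -0.10 and -0.12). The 850 genes of like signal had medians of -0.06 with each agent, with 27.2% and 25.1% of them higher, against 18.2% of the list. Without the arrays of narrower range the list medians were -0.02 and 0.005, and under quantile normalization -0.04 and -0.07. Slc1a5, a glutamine transporter, differed by -0.37 with 4OHT (SE 0.20), and Slc3a2, the heavy chain of several amino acid transporters, by -0.23 with Shld1 (SE 0.15). The RNA helicase gene Eif4a1 differed by 0.06 with 4OHT and the cap-binding factor gene Eif4e by 0.05 with Shld1. Cell cycle targets were split, with 11 of 19 higher with 4OHT (median 0.005) and 7 of 19 with Shld1 (median -0.03, which was 0.02 under quantile normalization). This list mixes growth arrest and inhibitor genes, such as Gadd45a and Cdkn1b, with cell cycle kinases, so its counts give no pathway direction. The 4OHT median was 0.07 under that normalization, and of genes of like signal 28.3% and 34.4% were higher. Gadd45a was at 7.89 ± 0.10 with 4OHT and 8.28 ± 0.002 without (-0.39, SE 0.14, limma, adjusted p = 0.96). Cdk6, a kinase of G1 phase, differed by 0.32 with 4OHT (SE 0.16). With Shld1 the transferrin receptor gene Tfrc differed by -0.31 (SE 0.14) and the cyclin kinase inhibitor gene Cdkn1b by 0.29 (SE 0.17).

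Of 11 measured genes upstream of Myc, 8 were lower with 4OHT (median -0.08) and 7 with Shld1 (median -0.10). Under quantile normalization the medians were 0.001 and -0.05, and without the arrays of narrower range 0.02 and 0.03. Of genes of like signal, 27.4% and 33.2% were higher, against 27.3% and 36.4% of the list. Lef1, a partner of beta-catenin, was at 6.69 ± 0.10 without treatment, 6.08 ± 0.28 with 4OHT and 6.36 ± 0.04 with Shld1. Both pairs of treated arrays lay below the untreated ones, and the differences were -0.61 (SE 0.17; limma, adjusted p = 0.96) and -0.33 (SE 0.17; adjusted p = 0.999). Klf4, a stem cell factor downstream of LIF, differed by 0.20 with 4OHT (SE 0.15), and Socs3, a feedback inhibitor and target of Stat3, by 0.09 with Shld1 (SE 0.15).

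**Figure D4:**
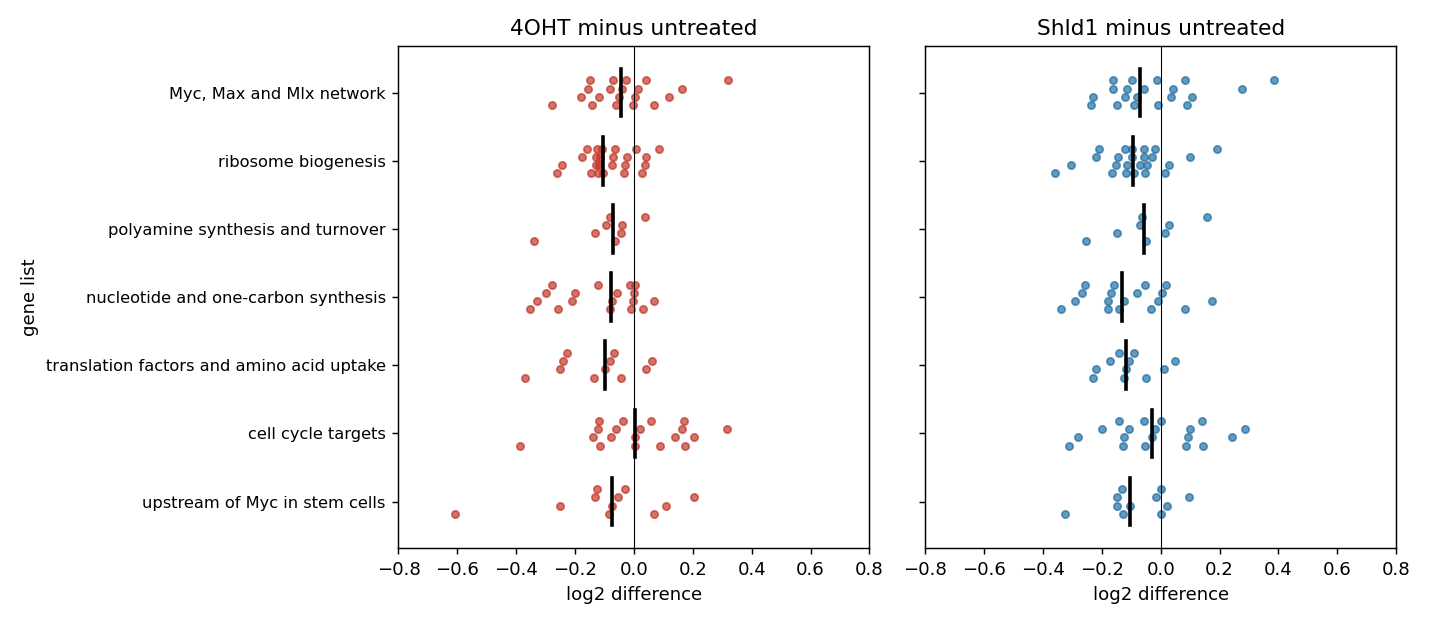
Log2 difference from untreated (horizontal axis) of every measured gene in the 7 lists, for 4OHT on the left and Shld1 on the right; points are genes and black bars list medians. The medians lie between -0.13 and 0.005, and those of the network list with 4OHT, of the polyamine and upstream lists with both agents, and of the translation and cell cycle lists with Shld1 change sign under quantile normalization or without the arrays of narrower range.

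Genes with the E-box CACGTG in the promoter window were set beside those without it, as a description. With 4OHT the 1481 genes that held it had a median difference of -0.03 and 42.4% were higher, and the 14082 that did not had -0.01 and 47.3%. With Shld1 the medians were -0.03 and -0.005. The array signal of the probe sets with the motif had a median of 5.63, against 4.60 without. On 4OHT replicate 1 and Shld1 replicate 2, genes with a mean signal between 5 and 6 had medians of -0.07 and -0.08. Those between 4 and 5 had medians of 0.08 and 0.02. Whether signal accounts for the difference was not tested. After quantile normalization the medians of genes with and without the motif were 0.0001 and 0.0005 with 4OHT and -0.005 and -0.0002 with Shld1. Without both arrays of narrower range they were -0.01 and -0.003 with 4OHT and -0.001 and -0.002 with Shld1.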

How the data were processed

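The authors deposited a table of log2 signals (35556 probe sets by 6 arrays, 0 values missing), a scale read from the values. Background correction, summarization and normalization are not given in the sources used here, and limma 3.14 is named, in a role left unstated, per the submitters' processing notes. In the platform annotation 21789 probe sets carried a single gene symbol, 1621 several and 12146 none. Symbols were updated through Entrez identifiers (21698 matched). For 999 genes with several probe sets the brightest was used, which left 19938 genes.

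Groups were compared with limma 3.58.1 in R 4.3.3: a mean per group over all 6 arrays, 3 residual degrees of freedom plus 6.77 from moderation, two-sided tests, and Benjamini-Hochberg adjustment over all genes at 0.05. The steps were tested on simulated data with independent noise for each gene. Those data held no shift of whole signal bands, so the test does not cover the arrays of narrower range. The members and lists were chosen with earlier results of these data known. The text names the 10 genes, the extremes of each list by moderated statistic in each comparison with untreated, and Pou5f1, Sox2 and Nanog. Where such an extreme is also given for the other comparison, that value was chosen after it was seen. Alternatives were quantile normalization, centring arrays at their 75th percentile, a filter removing the 40% of genes of lowest signal, averaging probe sets, an intensity trend, array weights, the replicate block, only the groups compared, and leaving out each array. Those for the list medians, and leaving out both arrays of narrower range, were chosen after seeing the data.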

Additional observations from a re-analysis of the deposited data

How the results depend on the processing

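Of the 30 differences of the 10 genes in the 3 comparisons, none passed the threshold under any of 15 alternatives, and 20 kept their sign under all of them; those of Myc did in all 3 comparisons. The Myc difference with 4OHT ran from 0.38 to 0.69 (limma, adjusted p from 0.608 to 1) and was at an unadjusted p under 0.05 in 12 of the 15. It was not without untreated replicate 1, without 4OHT replicate 1 or without both arrays of narrower range. The difference there was 0.38, 0.44 and 0.44. For this difference, only the groups compared and leaving out either Shld1 array were the same fit. The 15 are therefore not separate checks. That of Myc with Shld1 ran from 0.17 to 0.48. Several alternatives left every difference of the 10 genes as it was. These are the signal filter, intensity trend, array weights, replicate block, only the groups compared and leaving out an array of the third group. Averaging probe sets moved only Odc1 among the 10. Wherever a difference could not move, its kept sign was fixed in advance. Leaving out single arrays gave counts of calls from 0 to 0 in each comparison, for all genes and for the 10. An intensity trend gave 1 call among all genes for 4OHT against Shld1, which is none of the 10; the cause was not tested. No pairing by replicate number was seen: deviations of same-numbered arrays correlated across genes at 0.0496, -0.0789 and -0.194. The arrays of narrower range carry different numbers, so this does not show that same-numbered arrays were handled apart. The replicate block left the counts at 0 calls.

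Untreated levels moved by more than the replicate SD for Max (8.417) and Ncl (10.88) under quantile normalization, and for Odc1 (8.97) with its probe sets averaged, since the second is dimmer. List medians moved by more than the spread of their arrays in 10 cases. With 4OHT these were the network list (0.0142 under quantile normalization, 0.0297 without both arrays of narrower range), ribosome biogenesis (-0.0173 without both), nucleotide synthesis (-0.0085 under quantile normalization), translation (-0.02 without both) and cell cycle targets (0.0744 under quantile normalization). With Shld1 they were the network list (-0.0304 and -0.0286), nucleotide synthesis (-0.0101 without both) and the upstream genes (0.0327 without both). The cause was not tested.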

Other observations

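A value chosen after the signals were seen is the change of Myc relative to Mycn within each array. Subtracting the Mycn difference from the Myc difference, each against its untreated mean, gave 0.85 and 0.68 on the 4OHT arrays, 0.26 and 0.42 on the Shld1 arrays, and -0.12 and 0.12 on the untreated arrays. The groups did not overlap. For single genes, arrays were apart in 37.7% with 4OHT and 32.5% with Shld1 against untreated, and in 30.5% between the agents. How many pairs of genes separate all groups in this way was not counted. No test was run, since the pair was picked for this pattern, and the untreated arrays are shared by both agents.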
